A study of Mus musculus with 6 samples.

Results

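The high mobility group (HMG) proteins are small, abundant chromatin proteins, and 9 of their genes were followed here in tissue cut from either side of the dorsal aorta of the mouse embryo. The 9 genes were taken by name (Hmgb1, Hmgb2, Hmgb3, Hmga1, Hmga2, Hmgn1, Hmgn2, Hmgn3 and Hmgn5) and looked up by the gene symbol that the platform annotation gives each probe set. A total of 7 of the 9 were found among 24675 genes. Hmga1 and Hmgn1 had no row under their symbols and are not analysed here. Transcript levels came from Affymetrix Gene 2.0 ST arrays of C57Bl/6 embryos at embryonic day 10.5, with no genetic change or treatment in the labels. The dorsal group was 3 arrays of tissue above the aorta, up to the notochord, and the ventral group 3 arrays of tissue beneath the vessel, both cut by laser microdissection from unfixed, frozen and stained sections. The labels say that the 2 tissues came from the same embryos, but not how many embryos entered a sample.

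HMG proteins fall into 3 families that bind DNA or nucleosomes without reading long specific sequences. HMGB proteins carry paired HMG boxes that bend DNA, HMGA proteins hold AT-hooks that sit in the minor groove of AT-rich DNA, and HMGN proteins bind the nucleosome itself and compete with linker histone H1. Many HMG genes are active in embryonic and dividing cells, and Hmga2 is a classic target of the let-7 microRNAs, whose levels rise as tissues mature.

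The 3 HMGB genes shared a feature of sequence that the choice of genes did not use. In the 250 bases before the transcription start, taken from RefSeq for GRCm38.p6, Hmgb1 held the letters CCAAT 3 times, Hmgb2 4 times and Hmgb3 3 times, counted on both strands. At least 3 matches were present in 2.79% of 32851 such windows and at least 1 match in 33.8%. The cut of 3 equals the lowest count among these genes, and CCAAT was 1 of several motifs searched, so the share is a description. The windows of these 3 genes are shown because of these matches, and that of Hmga2 because it had 0 CCAAT matches and an unusual run of C and T. Capitals mark CCAAT or its reverse ATTGG, and GGGCGG or its reverse CCGCCC, which was present in 32.7% of windows. Also searched on both strands were TATAAA and CACGTG, in 12.4% and 6.02% of windows, with 0 matches in these 4.
Hmgb1 (chr5:149053058-149053307, minus strand): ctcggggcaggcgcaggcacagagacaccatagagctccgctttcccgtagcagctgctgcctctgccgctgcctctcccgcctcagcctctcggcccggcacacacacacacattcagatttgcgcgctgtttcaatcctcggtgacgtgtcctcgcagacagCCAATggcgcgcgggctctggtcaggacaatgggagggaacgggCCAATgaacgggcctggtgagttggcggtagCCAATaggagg
Hmgb2 (chr8:57511593-57511842, plus strand): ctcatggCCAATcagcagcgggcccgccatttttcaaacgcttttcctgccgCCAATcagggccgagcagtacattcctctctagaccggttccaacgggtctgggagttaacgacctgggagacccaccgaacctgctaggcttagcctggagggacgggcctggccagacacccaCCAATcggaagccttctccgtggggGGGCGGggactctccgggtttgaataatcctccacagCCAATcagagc
Hmgb3 (chrX:71555667-71555916, plus strand): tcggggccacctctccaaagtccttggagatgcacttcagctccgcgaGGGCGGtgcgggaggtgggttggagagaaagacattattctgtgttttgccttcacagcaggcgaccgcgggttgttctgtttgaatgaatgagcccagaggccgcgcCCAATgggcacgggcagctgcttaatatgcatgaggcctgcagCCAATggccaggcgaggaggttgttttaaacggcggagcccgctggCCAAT
Hmga2 (chr10:120476470-120476719, minus strand): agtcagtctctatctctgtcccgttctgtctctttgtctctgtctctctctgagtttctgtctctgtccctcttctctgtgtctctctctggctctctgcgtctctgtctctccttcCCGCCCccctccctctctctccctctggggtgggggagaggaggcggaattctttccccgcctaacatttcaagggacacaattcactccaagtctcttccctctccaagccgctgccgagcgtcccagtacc
C and T made up 70.8% of the Hmga2 window, more than in 99.6% of all windows. Hmgb1 has a second window at an inner start, with 0 CCAAT and 4 GGGCGG matches. At least 3 GGGCGG matches were present in 8.47% of windows. Among the other members, the Hmgn2 window held 0 CCAAT matches and that of Hmgn5 held 2. In all, 6 of the 7 measured members had a window in the table. These matches describe the letters only.

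None of the 7 HMG genes passed the test of ventral against dorsal tissue. In limma with the replicate number as a block, their adjusted p over all genes lay between 0.466 and 0.977. The same test called 0 of 24675 genes, or 0.0%, past the threshold of 0.05. Before adjustment 2522 genes, or 10.2% of all, had p under 0.05, with 1065 higher in ventral tissue (4.32%) and 1457 higher in dorsal tissue (5.9%). Among the 7 HMG genes 1 lay in each of these sets, Hmgb1 on the ventral side and Hmgn5 on the dorsal side. The ventral minus dorsal difference was above 0 for 2 members and below 0 for 5, against 10373 above and 14302 below over all genes. The members' median was -0.07 on the log2 scale, against -0.06 over all genes. Dorsal and ventral arrays overlapped for all 7 members. Over all genes they did not overlap for 18.7% (6.74% higher in ventral and 12.0% higher in dorsal tissue). With that share, 7 members are too few to set the family apart from all genes. In bulk tissue, a difference in the number of cells of a type and a difference in RNA per cell cannot be told apart.

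**Figure D1:**
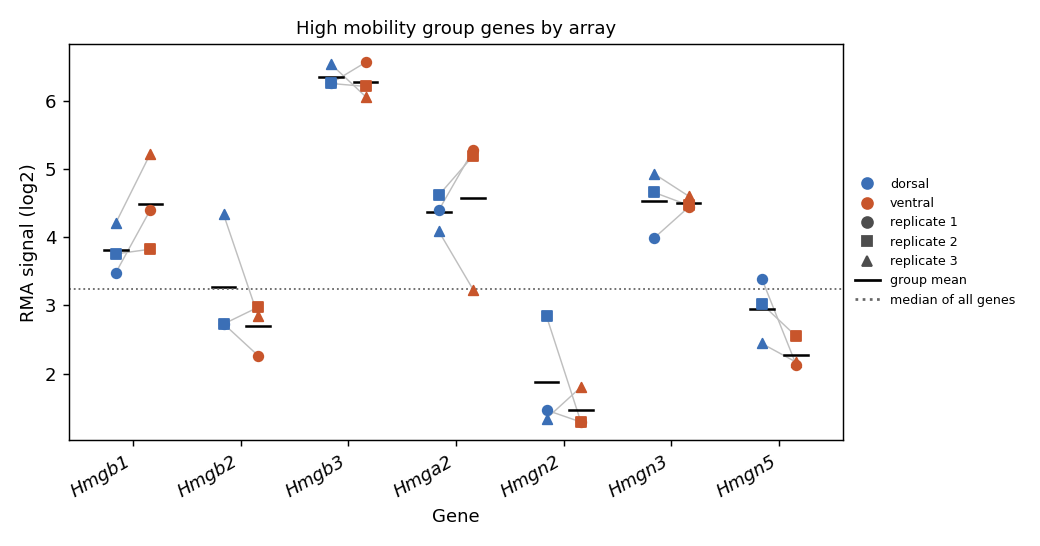
RMA signal on the log2 scale (vertical axis) of the 7 measured HMG genes (horizontal axis) in 3 dorsal (blue) and 3 ventral (orange) arrays. Marker shape gives the replicate number, grey lines join equal numbers, black bars are group means and the dotted line is the mean of the 6 array medians. Blue and orange points overlap for every gene, and single arrays stand apart for Hmgb1, Hmgb2, Hmga2 and Hmgn2.

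Hmgb1, the most studied HMGB protein, bends DNA in the nucleus and acts as an alarm signal when it leaves the cell. On the dorsal side its log2 signal was 3.48, 3.76 and 4.22 in arrays 1, 2 and 3, and on the ventral side 4.41, 3.83 and 5.23 in arrays of the same order, which is kept below. Ventral array 3 was the highest of the 6, and ventral array 2 lay within the dorsal range. The difference was 0.67 ± 0.24 (SE), or 1.59-fold, with a 95% interval from 0.07 to 1.27, an unadjusted limma p of 0.0342 and an adjusted p of 0.466. All 3 pairs of equal number went the same way, by 0.92, 0.07 and 1.01, as did 35.0% of all genes in either direction and 13.3% toward ventral. Without the block the unadjusted limma p was 0.104, and without ventral array 3, also unblocked, the difference was 0.30.

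Hmgb2, the HMGB gene most closely tied to cell division, was at 2.73, 2.73 and 4.34 in the dorsal arrays and at 2.26, 2.97 and 2.85 in the ventral arrays. Dorsal array 3 alone stood above the other 5. The mean of 2.98 lay under every array median, so Hmgb2 was not shown to be above background. The difference was -0.57 ± 0.34, with a 95% interval from -1.41 to 0.27 (limma adjusted p = 0.585). Without dorsal array 3, in a fit without the block, the difference was -0.03. Proliferation genes were read beside Hmgb2 from a list of 27, of which 26 were measured. Of these, 20 had a positive difference, against 10373 of all 24675 genes, and 0 passed at a limma adjusted p of 0.05. At an unadjusted limma p under 0.05, 8 were higher in ventral tissue and 2 in dorsal tissue, beside 4.32% and 5.9% of all genes. The groups did not overlap for 9 members higher in ventral and 0 higher in dorsal tissue, beside 6.74% and 12.0% of all genes. Their median difference was 0.47, opposite in sign to that of Hmgb2. Mcm3, part of the replicative helicase, differed by 1.05 ± 0.19 and Cks1b, a subunit of cyclin-dependent kinase complexes, by -0.82 ± 0.20, or by -0.48 without ventral array 2 and without the block. The summed linear signal of the list was 1134 to 1353 in dorsal and 2306 to 2970 in ventral arrays, without overlap. Pcna, the sliding clamp of DNA polymerase, was at 9.20, 1.43 and 7.95 in dorsal and at 10.6, 10.3 and 10.6 in ventral arrays. Without Pcna, left out after its values were seen, the sums overlapped, at 767 to 1132 in dorsal and 1087 to 1404 in ventral arrays.

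Hmgb3, an X-linked HMGB gene known from blood progenitors, was the steadiest member. Its signal was 6.27, 6.26 and 6.54 in dorsal tissue and 6.57, 6.22 and 6.07 in ventral tissue, a range of 0.50 across all 6. The groups lay on top of each other. The difference was -0.07 ± 0.21, with a 95% interval from -0.59 to 0.45 (limma adjusted p = 0.916), so a difference of up to 0.59 log2 units toward dorsal tissue lies within the error. Among 1107 other genes with a mean above 5, those whose pattern over the 6 arrays was most like that of Hmgb3 were Tyms, the thymidylate synthase of DNA precursor supply, with a Pearson r of 0.98, the predicted gene Gm10036 with 0.95 and Wfikkn1 with 0.94. These are the highest of 1107 values over 6 arrays and are given as a description.

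Hmga2, the embryonic architectural factor whose loss gives the pygmy mouse, divided the ventral arrays. Its signal was 4.40, 4.62 and 4.09 in the dorsal arrays, and 5.28, 5.20 and 3.23 in the ventral arrays. Ventral arrays 1 and 2 were above every dorsal array and ventral array 3 was below every dorsal array. The difference was 0.20 ± 0.36, with a 95% interval from -0.68 to 1.08 (limma adjusted p = 0.850). Without ventral array 3, in a fit without the block, it was 0.87 with an unadjusted limma p of 0.00607 and an adjusted p of 0.564. Without ventral array 1 or 2 it was -0.15 or -0.11.

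**Figure D2:**
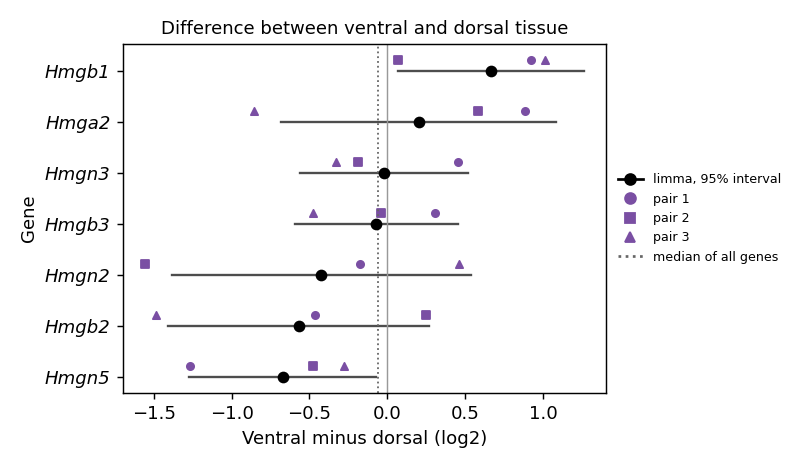
Ventral minus dorsal difference in log2 signal (horizontal axis) of the 7 HMG genes (vertical axis). Black points and lines are the limma estimate with its 95% interval, purple markers the differences of the 3 pairs of equal number, and the dotted line the median over all genes. The intervals of Hmgb1 and Hmgn5 lie to either side of 0 and those of the other 5 genes include it.

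The 3 measured HMGN genes, whose proteins loosen nucleosome packing, had differences below 0, as had 14302 of all 24675 genes. Differences among the 3 were not tested. Hmgn5, the X-linked HMGN protein with a long acidic tail, was at 3.39, 3.02 and 2.44 in the dorsal arrays and at 2.13, 2.55 and 2.17 in the ventral arrays. Ventral array 2 lay above dorsal array 3, and the other ventral values lay below all dorsal values. The difference was -0.67 ± 0.24, or 1.59-fold higher in dorsal tissue, with a 95% interval from -1.27 to -0.07, an unadjusted limma p of 0.0339 and an adjusted p of 0.466. All 3 pairs went toward dorsal tissue, by -1.27, -0.48 and -0.28, as in 21.8% of all genes. The mean of 2.62 over the 6 arrays lay under every array median, which ranged from 3.20 to 3.27, so the signal was not shown to be above background.

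Hmgn3, an HMGN protein known from neural and endocrine cells, was at 3.99, 4.66 and 4.93 in the dorsal arrays and at 4.44, 4.47 and 4.61 in the ventral arrays. The ventral values lay inside the dorsal range. The difference was -0.02 ± 0.22, with a 95% interval from -0.56 to 0.52 (limma adjusted p = 0.977). Hmgn2, a widely active HMGN gene, was at 1.46, 2.84 and 1.34 in the dorsal arrays and at 1.29, 1.29 and 1.80 in the ventral arrays. Dorsal array 2 alone stood above the others. Its difference of -0.42 ± 0.39 (limma adjusted p = 0.711) became 0.06 without that array, in a fit without the block. All of its values were below the array medians, so no statement on Hmgn2 in the tissue can be drawn from them.

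Single arrays set much of the spread in this family. The SD of a member was among the widest 5% of all genes in the dorsal or the ventral group for 4 of 7 members, against 8.67% of all genes, as a description without a test. In dorsal tissue the SD was 0.93 for Hmgb2 and 0.83 for Hmgn2, against a median of 0.26 over all genes. In ventral tissue it was 0.70 for Hmgb1 and 1.16 for Hmga2, against a median of 0.18. The arrays concerned were not the same. Dorsal array 3 stood apart for Hmgb2, dorsal array 2 for Hmgn2, and ventral array 3 for Hmgb1, where it was high, and for Hmga2, where it was low.

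Some HMG genes have pseudogenes named after them, whose sequences were not compared here with the genes or the probes. The RefSeq gene table names 13 after Hmgb1, of which 3 had a row, 1 after Hmga2, which had a row, 1 after Hmgb3 and 2 after Hmgn2, neither of which had one. Hmgb1-ps9 was at 7.61, 2.08 and 1.66 in the dorsal arrays and at 5.54, 7.40 and 7.34 in the ventral arrays. Dorsal array 1 was as high as the ventral arrays, and the other dorsal arrays were more than 3 log2 units lower. The difference was 2.98 ± 1.50 (limma adjusted p = 0.540). Leaving out both arrays numbered 1 gave 5.50 with a limma adjusted p of 0.0275, and leaving out dorsal array 1 alone, without the block, gave 4.89 with 0.128. Leaving out both arrays numbered 2 or 3 gave 1.80 or 1.62 (limma adjusted p 0.799 and 0.817). Leaving out dorsal array 2 or 3 alone, without the block, gave 2.12 or 1.92.

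The other copies gave smaller differences. Hmga2-ps1 was at 3.31, 2.91 and 3.42 in dorsal and at 3.64, 3.64 and 3.65 in ventral tissue. Its groups did not overlap, with a difference of 0.43 ± 0.19 (limma adjusted p = 0.501). It lacked the low value of Hmga2 in ventral array 3. Hmgb1-ps7 had a difference of 0.13 ± 0.28 and Hmgb1-rs17 of -0.68 ± 0.30, opposite in sign to Hmgb1, with limma adjusted p of 0.877 and 0.510. The mean of Hmgb1-rs17, 2.50, lay under every array median, so its signal was not shown to be above background. Without both arrays numbered 2, Hmgb1-rs17 was at -0.25 and Hmga2-ps1 at 0.28. How much of any HMG signal comes from copies was not tested.

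**Figure D3:**
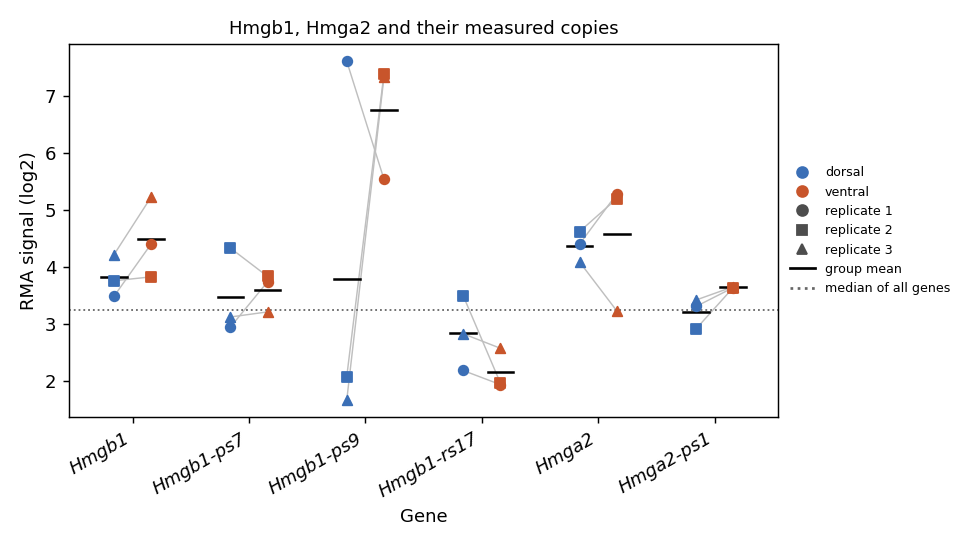
RMA signal on the log2 scale (vertical axis) of Hmgb1, Hmga2 and the 4 of their pseudogenes that had a row (horizontal axis), by array, with colours, marker shapes and bars by tissue, replicate number and group mean. Hmgb1-ps9 falls into a high set of 4 arrays between 5.54 and 7.61 and a low set of 2 dorsal arrays at 1.66 and 2.08, a split that Hmgb1 does not show.

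Hmga2 was read beside the genes that act on it. The let-7 microRNAs bind Hmga2 mRNA through their seed, Lin28 proteins block let-7 maturation, and Igf2bp proteins bind mRNA in the same embryonic programme. The 8 let-7 5p forms compared here share 1 seed (bases 2 to 8, in capitals), and 3 are shown to mark where they differ. Any entries on 1 chromosome of the RefSeq table were left out of this comparison.
mmu-let-7a-5p: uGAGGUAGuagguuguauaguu
mmu-let-7f-5p: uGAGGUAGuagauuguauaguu
mmu-let-7g-5p: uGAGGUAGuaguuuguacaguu
The array reports RNA from a let-7 locus, which may be precursor or host transcript, and not the mature form. The locus of let-7a-1 was at 4.90, 5.06 and 5.10 in the dorsal arrays and at 3.48, 3.94 and 3.74 in the ventral arrays. The lowest dorsal value lay above the highest ventral value. The difference was -1.30 ± 0.17, or 2.46-fold higher in dorsal tissue, with an unadjusted limma p of 0.000358 and an adjusted p of 0.239. It lay between -1.41 and -1.18 in the 16 alternatives run. Dropping the block, the filters and the trended prior cannot change a log2 difference, so the range rests on the others. Leaving out arrays could not turn its sign, as the groups did not overlap.

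Mirlet7f-1 and Mirlet7d lie with Mirlet7a-1 on chromosome 13. Mirlet7f-1 was at 2.08, 1.67 and 2.57 in the dorsal arrays and at 1.60, 1.61 and 1.51 in the ventral arrays, also without overlap, a difference of -0.53 ± 0.24 (limma adjusted p = 0.511). Mirlet7d differed by 0.04 ± 0.17, and Mirlet7c-1, with overlapping groups, by -0.54 ± 0.25. Mirlet7a-2, which encodes the same 5p form as Mirlet7a-1 and was added after its value was seen, differed by 0.59 ± 0.20 in the opposite direction. The loci of let-7f-1, d, a-2, c-1, f-2, g and i had means close to or under the array medians. Igf2bp1 was at 4.37, 4.52 and 4.34 in dorsal and at 5.15, 5.08 and 4.86 in ventral tissue, without overlap, a difference of 0.62 ± 0.17 (limma adjusted p = 0.437). Igf2bp3 went the other way, also without overlap, with a difference of -0.45 ± 0.19 (limma adjusted p = 0.4955). Lin28a was at 4.49, 4.64 and 4.90 in dorsal and at 3.93, 4.48 and 4.37 in ventral tissue, also without overlap, a difference of -0.42 ± 0.18 (limma adjusted p = 0.501).

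Of 19 genes listed around Lin28, let-7 and Hmga2, 15 were measured, and 0 passed the limma threshold. Before adjustment, 1 gene had a limma p under 0.05 toward ventral tissue (Igf2bp1) and 1 toward dorsal tissue (Mirlet7a-1). Over all genes, 4.32% and 5.9% did so. Mirlet7a-2, with an unadjusted limma p of 0.0281 toward ventral tissue, was not in the list. The list's median was -0.23, with 4 positive and 11 negative differences. The groups did not overlap for 5 of 15 members, beside 18.7% of all genes. Of the 5, 1 was higher in ventral and 4 in dorsal tissue, beside 6.74% and 12.0% of all genes. In ventral array 3, where Hmga2 was low, Mirlet7a-1 lay between the other ventral arrays, and Igf2bp1 was below the other ventral arrays and above every dorsal array.

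**Figure D4:**
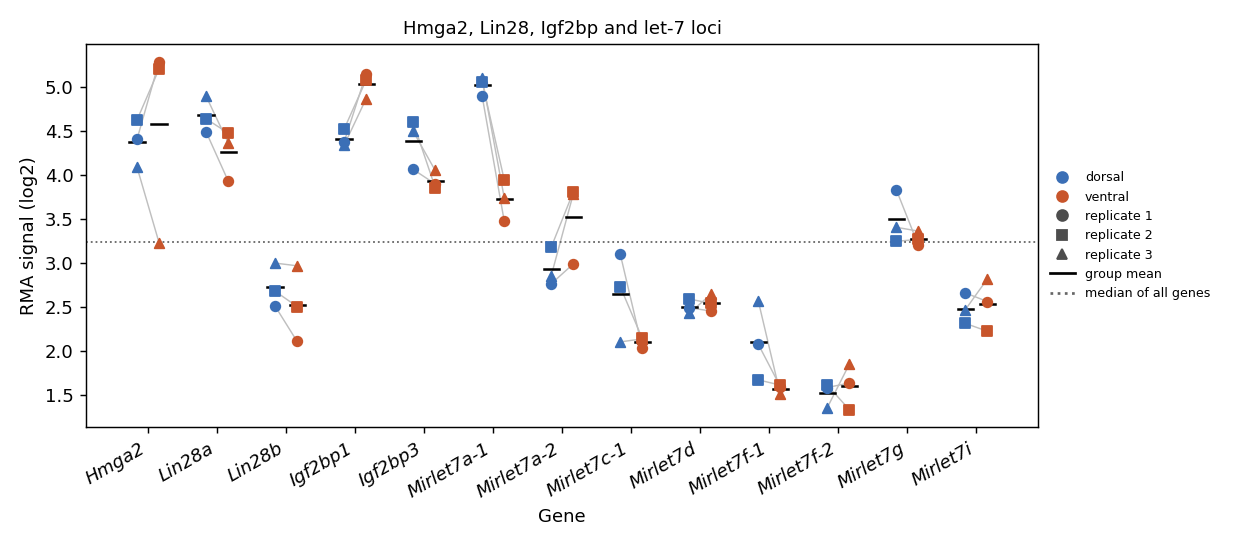
RMA signal on the log2 scale (vertical axis) of Hmga2, the Lin28 and Igf2bp genes and 8 let-7 loci (horizontal axis), by array, with colours, marker shapes and bars by tissue, replicate number and group mean. Mirlet7a-1 lies between 4.90 and 5.10 in dorsal and between 3.48 and 3.94 in ventral arrays, while Hmga2 has 2 high ventral arrays and 1 low one.

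Other chromatin genes that work with HMG proteins had no member past the threshold. Among 30 of 33 further HMG-box genes, 14 differences were positive and the median was -0.02. Tox4, an HMG-box protein of a phosphatase complex, had 0.58 ± 0.18 and Sox7, an endothelial factor, -0.61 ± 0.25. Without dorsal array 3, in a fit without the block, these were 0.23 and -0.35, and without dorsal array 2 they were 0.86 and -0.94. The linker histones, which compete with HMGN and HMGA proteins for nucleosomes, had 8 of 15 genes measured, 4 positive and 4 negative, with a median of -0.09. The oocyte linker histone H1f8 differed by -0.50 ± 0.18. H1f5 was at 5.23, 1.94 and 8.84 in the ventral arrays and between 2.61 and 2.93 in dorsal tissue, a difference of 2.56 ± 1.16 that rested on ventral arrays 1 and 3.

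Histone chaperones and acidic nuclear proteins leaned to positive differences, in 15 of 21 measured genes of 24 listed, against 10373 of all 24675 genes. Their median was 0.21, against -0.06 over all genes. At an unadjusted limma p under 0.05, 2 were higher in ventral tissue and 0 in dorsal tissue, beside 4.32% and 5.9% of all genes. Asf1a, a chaperone of histones H3 and H4, was at 4.58, 4.15 and 3.76 in dorsal and at 5.36, 6.38 and 5.96 in ventral tissue. Its groups did not overlap, with a difference of 1.74 ± 0.33 and a limma adjusted p of 0.378. H3f3a, a gene of histone variant H3.3, differed by 1.02 ± 0.24 (limma adjusted p = 0.429), with overlapping groups, or by 0.58 without dorsal array 3 and without the block. Among 14 receptors and partners of extracellular Hmgb1, 7 differences were positive and the median was -0.01. Ptn, a growth factor that binds the same syndecan receptors, differed by 1.35 ± 0.31, and Cd24a, a surface glycoprotein that binds Hmgb1, by 0.48 ± 0.19. In fits without the block, Ptn was 0.73 without dorsal array 3 and 2.05 without dorsal array 1, and Cd24a was 0.19 without ventral array 2 and 0.73 without ventral array 1. Of its receptors, Ager had -0.17 ± 0.18 and Tlr4 0.10 ± 0.19.

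The tissues were checked against markers of cells near the aorta. Sclerotome and cartilage genes, which mark mesenchyme around the notochord, had a negative difference in 10 of 11 genes, against 14302 of all 24675. Their summed linear signal was 268 to 282 in dorsal and 149.5 to 198 in ventral arrays. The summed signals of the erythroid (11 genes), endothelial (13), notochord (9), neural (11), splanchnic mesoderm (11), gut endoderm (11) and macrophage (11) lists overlapped between the tissues. None of the genes in these lists passed at an adjusted p of 0.05 in limma. Sums can hide single genes that separate the tissues. The groups did not overlap for 1 erythroid, 1 neural and 2 gut endoderm genes higher in ventral tissue, beside 6.74% of all genes. Nor did they for 1 endothelial, 2 splanchnic, 1 gut endoderm and 1 macrophage gene higher in dorsal tissue, beside 12.0% of all genes. The median of the endothelial list was 3.24 to 3.37 per array, near the array medians, so the list as a whole did not show vessel cells above background. Of its 13 genes, 8 had a mean above the median over all genes, and 5 differences were positive and 8 negative. Plvap was at 3.83, 3.67 and 4.27 in dorsal and between 2.81 and 3.08 in ventral arrays (limma adjusted p = 0.384). The neural sum was 375 in ventral array 1, one of the arrays in which Hmga2 was high, and 105.0 to 149.6 in the other 5, and the neural HMG-box gene Sox2 was at 7.61 there and between 2.20 and 2.73 elsewhere. Its part in the Hmga2 values was not tested. The erythroid sum ran from 608 in ventral array 1 to 10298 in ventral array 3, the array in which Hmgb1 was high and Hmga2 low. It was also high in dorsal array 3, at 7197, against 1954 and 1849 in dorsal arrays 1 and 2 and 3139 in ventral array 2. The part of red cells in the Hmgb1 and Hmga2 values was not tested.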

How the data were processed

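Per the submitters' processing notes, the authors used Affymetrix Expression Console and RMA, without stated versions, on 6 arrays. The deposited values are log2 signals per probe set, with the log base taken from their range of 0.97 to 12.9. Per the labels, between 200 and 1000 pg of RNA was amplified per sample, which can widen the spread of dim genes. Of 25429 probe sets, 24675 had 1 gene symbol in the platform annotation and were used, and 754 had none. Differences between ventral and dorsal tissue were tested with limma 3.58.1 (R 4.3.3; lmFit and eBayes, two-sided, Benjamini-Hochberg over all 24675 genes, threshold 0.05), with the replicate number as a block because the labels place both tissues in the same embryos. Values after ± in the text are SE of a log2 difference unless called SD. An exact permutation test of 3 against 3 arrays cannot go below p = 0.1 for a single gene. P-values reflect only the spread among these arrays, whose number limits the precision. Members and gene lists were chosen with earlier results of these data known. Besides all members, each chromatin, let-7, receptor and proliferation list names the 2 genes lowest in unadjusted p, as none passed. Copies are named in full, further genes for their role, and marker lists by counts. Fabp7 and Plvap are named as the genes lowest in unadjusted p of their marker lists. Older symbols were matched through the RefSeq gene table. The fit was tested on simulated data with known changes. It recovered 7 of 50 genes changed 2-fold and 49 of 50 changed 4-fold, with 7 false calls. The simulated noise was normal, with gene spreads shrunk toward each other, and held no stray single arrays like those seen here. Recovery in the real arrays may be lower, above all for genes of wide spread. Pcna, 19.8-fold higher in ventral tissue, had a limma adjusted p of 0.460. A gene that did not pass may therefore still differ. Alternatives were no block, median centring, cyclic loess, filters on dim genes, a trended robust prior, array weights and leaving out replicates.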

Additional observations from a re-analysis of the deposited data

How the results depend on the processing

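No alternative called any of the 7 HMG genes at an adjusted p of 0.05 in limma. Over all genes the count was 0 with the replicate block, 1 without it, 0 under the other 6 settings on all arrays and 0 to 5 when replicates were left out. The median difference over the members was -0.07, between -0.16 and 0.09 under the settings on all arrays (filters kept 5 or 4 members) and between -0.29 and 0.13 without single replicates. The equal numbers were only weakly tied: deviations from the group means correlated at 0.04, -0.01 and 0.06 across genes in pairs 1, 2 and 3, so the samples may share only a number. The block set the side of an unadjusted p of 0.05 for Hmgb1 (0.0342 with it and 0.104 without it, limma adjusted p 0.466 and 0.516) and not for Hmgn5 (0.0339 and 0.0352, limma adjusted p 0.466 and 0.418).

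Directions were kept in every alternative that tested them by Hmgb1 (0.30 to 1.00), Hmgb2 (-0.98 to -0.03) and Hmgn5 (-0.93 to -0.38). Hmgn3 turned from -0.021 to 0.023 after median centring. Leaving out replicates turned Hmgn3 (0.01 to 0.18 where positive, lowest -0.29), Hmgb3 (-0.26 to 0.13), Hmgn2 (-0.87 to 0.14), Hmga2 (-0.15 to 0.87) and Hmgb1-ps7 (-0.20 to 0.56). By construction these fits hold fewer arrays. Dim signals limit Hmgb2, Hmgn2, Hmgn5, Hmgb1-rs17 and most let-7 loci.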
